A study of Arabidopsis thaliana with 17 samples.

Results

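A set of 94 Arabidopsis thaliana probe sets stood higher in wild-type seedlings directly after a second heat than directly after a first one. In seedlings collected directly after a first heat, none stood as much as 1 log2 unit above unheated seedlings. The 94 were picked by a rule on the wild-type arrays. A probe set was kept where the mean log2 intensity of primed and triggered seedlings was at least 0.8 above that of triggered seedlings and at least 5, where the lowest primed and triggered array lay above the highest triggered array, and where the triggered mean was less than 1 above the naive mean. Of 22746 probe sets other than controls, 95 met these thresholds. The rule also left out UGT71C2, AT1G11660, expansins and xyloglucan enzymes by name, which removed UGT71C2 alone, so the members were 0.413% of the probe sets. Without the wild-type primed and triggered array of replicate 2, 217 probe sets would have been kept, 82 of them among the 94. An annotation of the array gave 1 gene to 53 members, all different genes, and the other 41 are named here by their probe set.

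The wild type was accession Col-0, and the mutant was an hsfa2 knockout, a T-DNA insertion line (SALK_008978) in the Col-0 background, represented by that line alone. Whole seedlings, kept at 22 °C in days with 16 h of light, were collected when 7 d old. Naive seedlings were never heated (3 wild-type and 2 hsfa2 arrays). Primed seedlings were heated to 37 °C for 1 h when 4 d old and had 3 d of recovery (2 wild-type arrays, with no hsfa2 counterpart analysed here). Triggered seedlings had 1 h at 37 °C directly before collection (3 wild-type and 2 hsfa2 arrays), and primed and triggered seedlings had both treatments (3 wild-type and 2 hsfa2 arrays). Within a group the arrays are labelled as biological replicates.

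Heat memory is the altered response of a plant to heat after an earlier, mild exposure from which it has recovered. HSFA2 is a heat-induced transcription factor that binds heat shock elements in promoters and is known in Arabidopsis for keeping heat-responsive genes active after the stress has ended. Transcriptional memory is usually described in 2 forms, in which a transcript either stays high after the first stress or returns to its starting level and responds more strongly to the next one.

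Intensities are given on the log2 scale, on which a difference of 1 is a doubling, and levels of different probe sets are not compared. The median intensity before log2 was 51.8 to 58.9 on the arrays of seedlings heated just before collection and 60.1 to 64.2 on the naive and primed arrays. The naive array of replicate 3 and both primed arrays had lower signal of the spiked-in hybridization control bioB (4.27 to 4.35 on the log2 scale) than the other 14 arrays (6.81 to 8.21). HSFA2 itself had no probe set with that name, so the knockout could not be checked on its target. Of the fixed tissue markers, the shoot list (2 of 6 measured) had a mean level of 12.77 to 13.41 over the 17 arrays and the root list (3 of 4 measured) 6.30 to 8.70, and seed storage genes were not measured. In whole seedlings, fewer cells of a type and less RNA per cell cannot be told apart.

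In the wild type, the members stood between 0.80 and 2.60 higher in primed and triggered than in triggered seedlings, with a median of 1.03 against -0.00 for all probe sets. These are the values that chose them, so they carry no test, and 0.655% of all probe sets had a difference of at least 0.8 without overlap of the arrays. A difference of 1 or more was seen for 56 of the 94. Against primed seedlings, the primed and triggered mean was higher in 75 members and lower in 19, in 8 of these by 1 or more. The median of that difference was 0.84 against 0.01 for all probe sets. It uses arrays that chose the members, so it was not tested, and the counts over all probe sets are not given here. The probe set just inside the limit of 0.8 was AT1G24095 (0.80) and the one just outside was 263876_at (0.798). On the size of the gap between the arrays, AT5G13880 lay just inside with 0.01 and 250506_at just outside with -0.01.

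The member with the largest difference was 256652_at, which has no gene in the annotation. It measured 8.99, 9.34 and 8.91 on the 3 wild-type primed and triggered arrays, against 6.67, 6.13 and 6.62 on the triggered, 6.70, 6.55 and 6.62 on the naive and 6.38 and 6.76 on the primed arrays. Only the 3 primed and triggered arrays were high, and all other wild-type arrays shared one range. The difference of 2.60 is 6.08-fold.

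AT5G55050, a GDSL-type lipase of the kind that acts on surface and cell wall lipids, had the largest difference among the members with a gene, 1.94. Its levels were 8.43, 8.30 and 7.83 in primed and triggered seedlings, 6.85, 5.76 and 6.14 in triggered, 5.85, 5.85 and 5.66 in naive and 6.28 and 6.31 in primed seedlings. The primed and triggered arrays stood clear of the rest, and the triggered arrays varied with an SD of 0.55 (n = 3). AT1G62290, an aspartic protease, showed the same pattern with 8.78, 9.25 and 9.02 in primed and triggered seedlings, 7.34, 7.48 and 7.48 in triggered, 7.56, 7.74 and 7.26 in naive and 7.80 and 8.54 in primed seedlings. Both of its primed arrays lay above all naive and triggered arrays, the first by a narrow margin. TET2, a tetraspanin of the plasma membrane, measured 8.47, 7.88 and 8.14 in primed and triggered and 7.15, 6.39 and 6.99 in triggered seedlings. Its primed array of replicate 2, at 7.91, reached the range of the primed and triggered arrays.

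**Figure D1:**
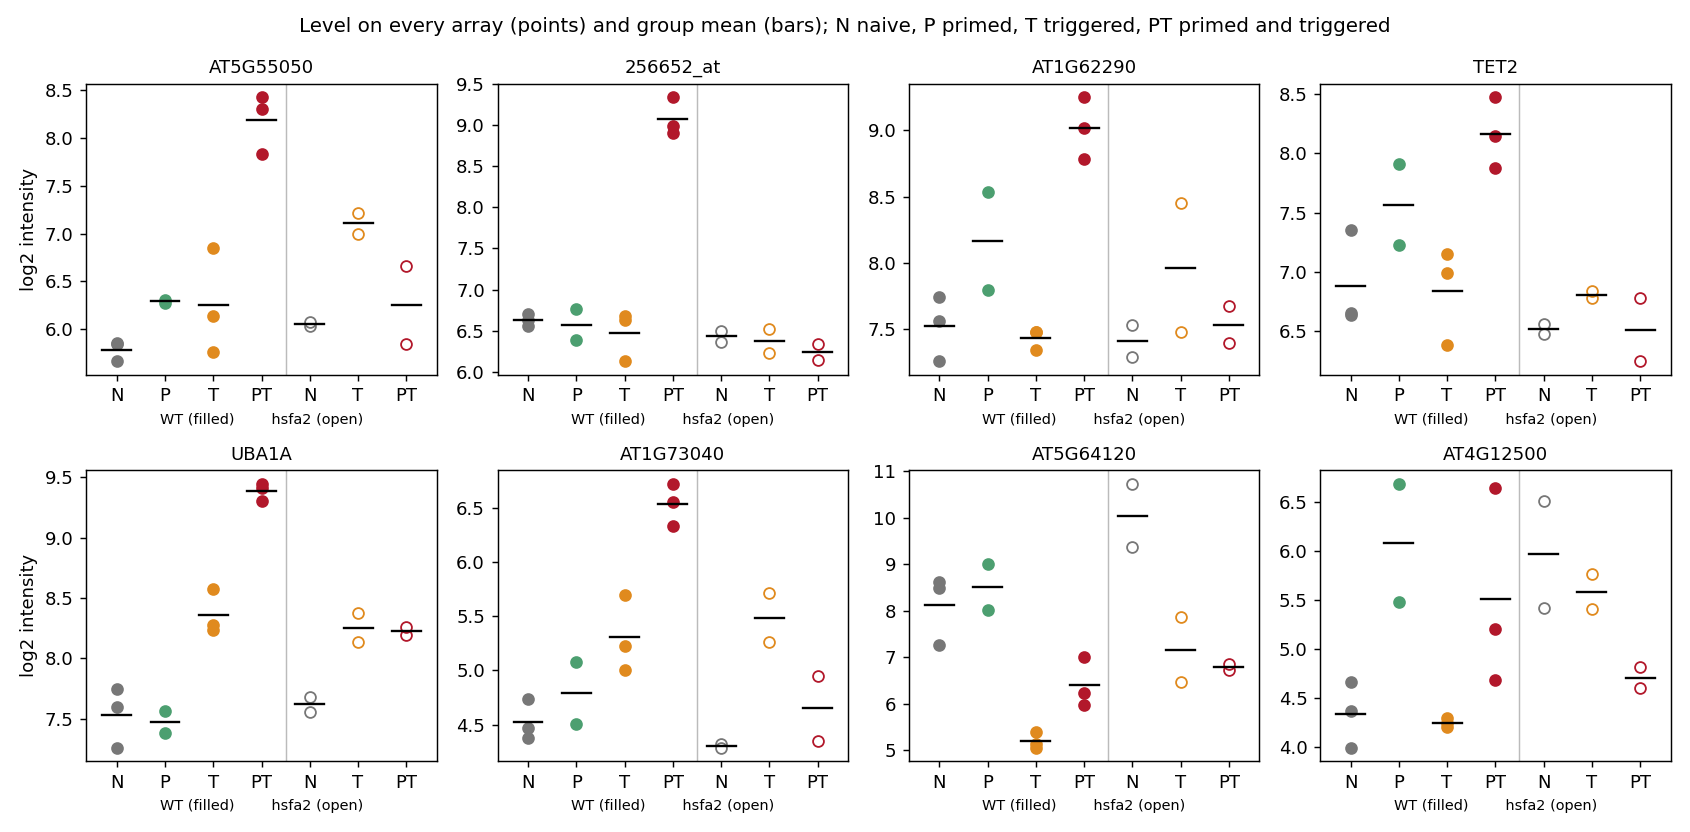
Log2 intensity of 8 members on every array (points) with the group mean (bars), for the wild type (filled) and hsfa2 (open), where N is naive, P primed, T triggered and PT primed and triggered. In the wild type the PT points lie above the T points for each member by the way members were chosen. In hsfa2 the lowest differences of the PT from the T mean are those of AT4G12500 (-0.88), AT5G55050 (-0.85) and AT1G73040 (-0.84).

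Grouping the members by known function, a grouping made after the values were seen and therefore without a test, gave 5 members of the lipid transfer protein family, small secreted proteins that bind lipids (AT4G33550, AT2G37870, AT4G12500, AT3G58550 and AT5G05960). Their wild-type differences between primed and triggered and triggered seedlings were 1.05 to 1.80, and a single heat treatment left all 5 below the naive mean (-1.63 to -0.09). AT4G33550 had the lowest of these values, with 7.60, 7.67 and 8.46 in naive and 6.86, 6.00 and 5.98 in triggered seedlings, and it stood at 8.41, 8.33 and 7.49 in primed and triggered seedlings. Its primed and triggered arrays overlapped the naive ones. AT2G37870 measured 7.79, 7.23 and 7.98 in primed and triggered seedlings against 6.33, 5.81 and 6.32 in triggered and 7.07, 6.18 and 7.08 in naive seedlings.

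The 3 aspartic proteases (AT1G62290, AT5G19110 and AT5G37540) differed by 1.03 to 1.58, and the 2 jacalin-type lectins, carbohydrate-binding proteins (JAL22 and AT1G73040), by 0.98 and 1.23. The glucanases AT5G42720 and AT4G18340, of the glycosyl hydrolase family that cuts cell wall and callose glucans, differed by 0.87 and 1.16. PUB22, a U-box ubiquitin ligase that dampens immune signalling, differed by 0.87 and UBP18, a deubiquitinating enzyme, by 0.81. Other members were the RNA-binding protein UBA1A (1.03), the synaptotagmin family member ATSYTF (1.17), the acyl-ACP thioesterase FaTA, which ends fatty acid synthesis in plastids (0.85), the IST1-like protein AT1G13340 (1.40) and the TIR-NBS-LRR immune receptor family member AT5G38850 (1.35). AT2G21640, known as a mitochondrial protein raised by oxidative stress, measured 6.74, 6.31 and 6.39 in primed and triggered seedlings against 5.25, 5.44 and 5.33 in triggered ones, a difference of 1.14. Of the 53 members with a gene, 2 pairs lay within 10 genes of each other, PUB22 with AT3G52470 and AT4G18280 with AT4G18340.

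None of the 94 members was in any of the 12 gene lists, which hold 176 entries, of which 37 were measured under 1 gene. The heat memory list, with 3 of 17 genes measured (HSA32, ATHSP22.0 and AT5G48570), gave wild-type differences between primed and triggered and triggered seedlings of 0.07, 0.29 and 0.05. The ceiling of 1 on triggered minus naive kept out these 3 genes (list median 7.08) and most small heat shock protein genes (8.77) in advance. ATHSP22.0 and AT5G48570 already stood at 13.12 and 13.04 in triggered seedlings, and the highest value on any array was 14.26. Whether the array left room for a further rise was not tested.

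The ceiling on the first response let through very different responses to a single heat treatment. Triggered minus naive in the wild type ran from -3.01 to 0.96 with a median of 0.01 (all probe sets 0.00), and 48 members lay above and 46 below 0. Only 42 members were within 0.5 of their naive mean, so the description as hardly induced covers members that stood up to 1.94-fold above naive and others that stood far below it. The member nearest the ceiling was 265119_at (0.96), and AT1G12650 was just outside (1.02).

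Of the 94, 14 were lower by 1 or more in triggered than in naive seedlings, against 4.34% of all probe sets, a contrast the rule used. AT5G64120, the cell wall peroxidase PRX71, measured 7.26, 8.62 and 8.48 in naive, 5.41, 5.05 and 5.13 in triggered and 6.25, 7.02 and 5.97 in primed and triggered seedlings. The 3 groups did not overlap, and the primed and triggered arrays lay between the other two. AT4G34560 was at 6.94, 6.83 and 6.98 in naive, 4.96, 4.92 and 5.28 in triggered and 6.36, 5.96 and 6.13 in primed and triggered seedlings. AT3G52470, of a family related to late embryogenesis abundant proteins and NDR1/HIN1-like proteins, was at 8.38, 8.26 and 8.26, then 5.99, 6.81 and 6.72, then 7.13, 7.55 and 7.45 in the same order. For both, the primed and triggered level stood between the naive and the triggered level on every array.

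Across these 14 members, primed and triggered minus naive had a median of -0.88 and a range of -1.93 to 0.18. In 8 of them every primed and triggered array lay below every naive array, as in 16.6% of all probe sets, and 2 had a primed and triggered mean above the naive mean. In the other 80 members the same difference had a median of 1.41, 79 stood above the naive mean, and in 67 every primed and triggered array lay above every naive array, as 15.5% of all probe sets did. The 80 thus mostly stood above naive after the second heat, while the 14 mostly stood below naive. The rule used all of these arrays and held every member at least 0.8 above its triggered mean. These positions therefore follow in large part from the choice of the members and carry no test.

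**Figure D2:**
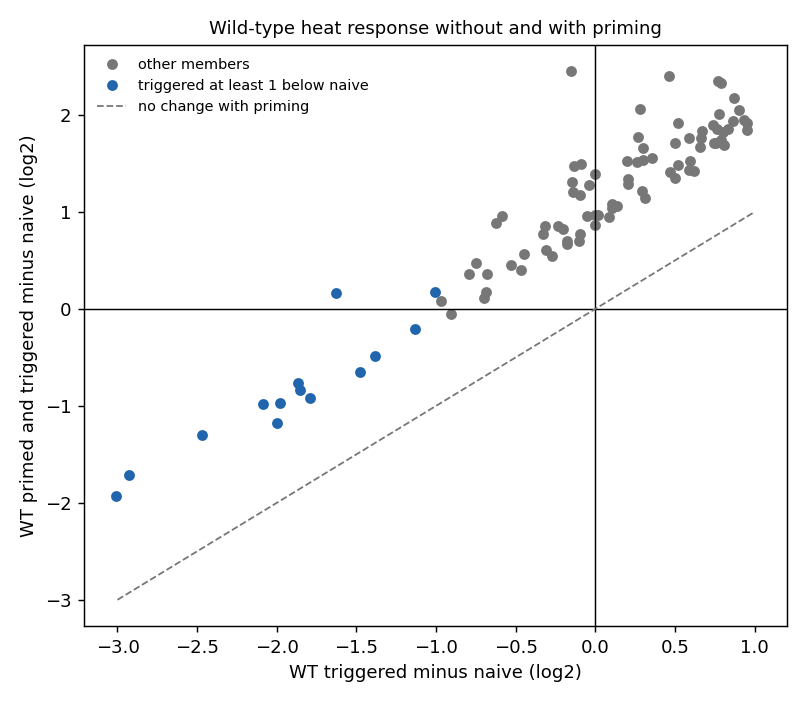
Wild-type triggered minus naive (horizontal axis, log2) against wild-type primed and triggered minus naive (vertical axis, log2), each point 1 of the 94 members, with the dashed line marking no change with priming. The 14 members in blue lay 1 or more below naive after a single heat, with a median of -0.88 after both treatments, against 1.41 for the other 80.

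The members' median over each array was taken relative to each member's wild-type naive mean. It was 1.35, 0.99 and 1.20 on the 3 primed and triggered wild-type arrays, which the rule required to be above the triggered ones. The triggered arrays were at 0.15, -0.09 and 0.11, the primed at 0.18 and 0.11, and the 3 naive arrays at 0.01, -0.01 and -0.01. The mutant arrays, which the rule did not use, were at -0.05 and -0.02 when naive, 0.08 and 0.18 when triggered, and 0.11 and -0.08 when primed and triggered. No hsfa2 array reached the range of the wild-type primed and triggered arrays, but that range was raised by the choice of the members, so this was not tested.

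**Figure D3:**
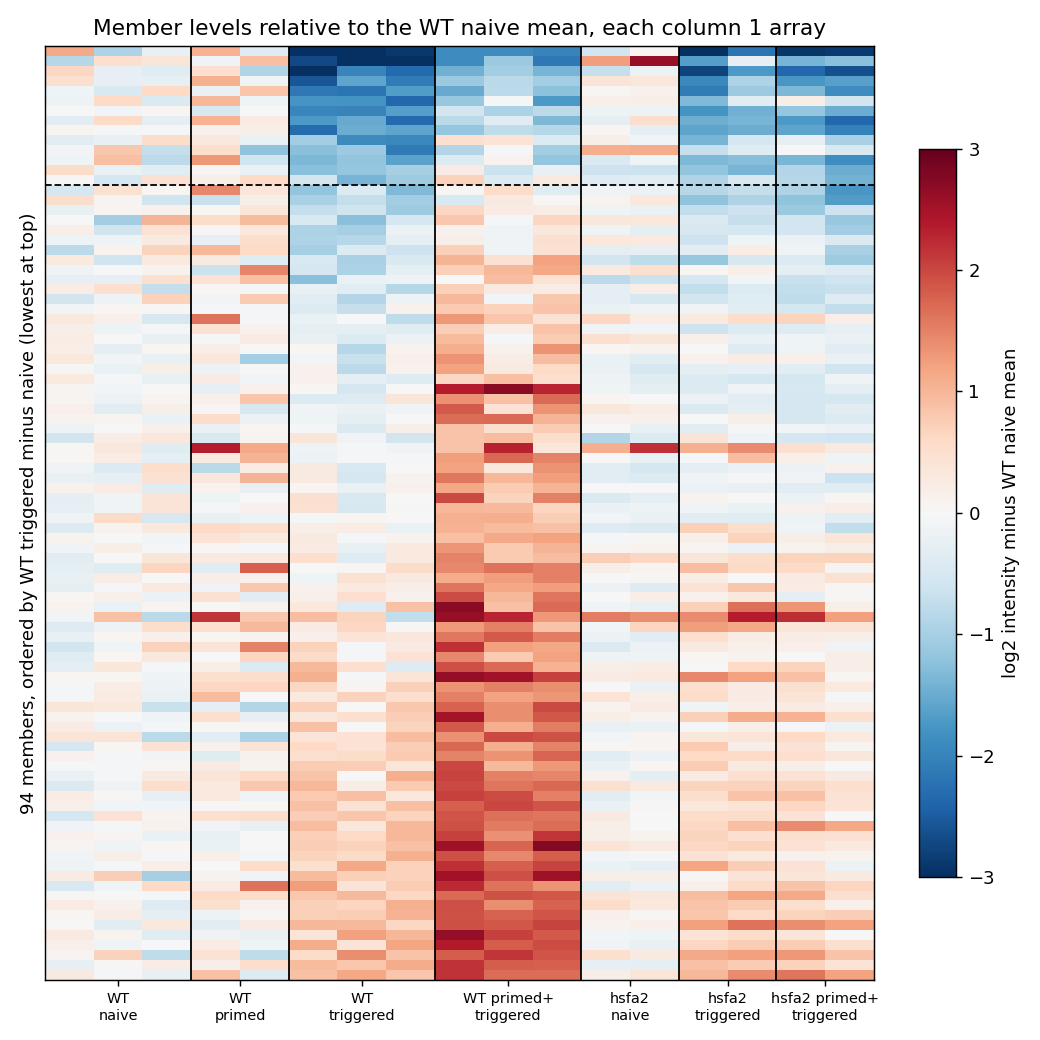
Log2 intensity of each of the 94 members (1 line each, ordered by wild-type triggered minus naive, lowest at top) minus its wild-type naive mean, with 1 column for each of the 17 arrays. The dashed line separates the 14 members lowered by 1 or more. The 3 wild-type primed and triggered columns are high below that line, by the way members were chosen. Their array medians over all members are 0.99 to 1.35, and those of the 2 hsfa2 primed and triggered columns are 0.11 and -0.08.

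In hsfa2, no member was called higher or lower in primed and triggered than in triggered seedlings (limma, Benjamini-Hochberg adjusted over all probe sets, smallest adjusted p among members 0.772). In either direction 0% of all probe sets were called. For 6 members, or 6.38%, limma gave an unadjusted p under 0.05, against 5.85% of all probe sets. The members' median was -0.15 against -0.02 for all, the range was -1.05 to 0.64, and 66 of the 94 (70.2%) lay below 0, as did 54.8% of all probe sets. Leaving out 1 array moved that median to between -0.24 (without primed and triggered replicate 1) and -0.064 (without primed and triggered replicate 2). None had a difference of 0.8 or more without overlap, as 0.637% of all probe sets did, and 2 reached 0.5.

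The 2 groups of hsfa2 arrays did not overlap for 40 members. The primed and triggered arrays were the higher ones in 7 (7.45% of members, 22.1% of all probe sets) and the lower ones in 33 (35.1% of members, 26.1% of all). Of the 9 members lower by 0.5 or more (3.4% of all probe sets), 255080_at was lowest, at -1.05, with 7.55 and 6.94 in primed and triggered against 8.38 and 8.20 in triggered seedlings. Its unadjusted p was 0.000701 and its adjusted p 0.772 in limma.

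AT5G55050, the lipase, measured 6.66 and 5.84 in primed and triggered hsfa2 seedlings, 7.22 and 6.99 in triggered and 6.03 and 6.08 in naive ones. The difference was -0.85 (95% confidence interval -1.54 to -0.17, adjusted p in limma 0.824), with both primed and triggered arrays below both triggered arrays. In 256652_at, the member highest in the wild type, the hsfa2 arrays shared one range, with 6.14 and 6.33 in primed and triggered, 6.22 and 6.52 in triggered and 6.49 and 6.37 in naive seedlings. The interval of its difference, -0.58 to 0.31, ended below 0.8. For AT1G73040, the lectin, 4.95 and 4.35 in primed and triggered stood below 5.71 and 5.26 in triggered seedlings (-0.84, interval -1.42 to -0.25, adjusted p in limma 0.824).

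UBA1A was at 8.19 and 8.26 in primed and triggered and 8.37 and 8.14 in triggered hsfa2 seedlings, a difference of -0.03 with an interval of -0.39 to 0.34. Its groups overlapped fully. AT1G62290, the aspartic protease, gave -0.43 (-1.08 to 0.22) and UBP18 0.07 (-0.37 to 0.50). AT4G33550, the lipid transfer protein, was among the members that stood higher, with 7.67 and 6.93 against 6.52 and 7.40. Its interval of -0.59 to 1.27 did not exclude a change of 0.8. AT2G19970, of the family of the pathogenesis-related protein PR-1, had the highest value, 0.64, with 7.14 and 6.41 in primed and triggered against 5.65 and 6.61 in triggered seedlings. These arrays overlapped.

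The 95% interval ended below 0.8 for 71 of the 94 members, and the median half-width of these intervals was 0.66, so with 2 arrays a group the data could not exclude a change of that size in the other 23. The same share over all probe sets is not given here, so the count describes precision and not a trait of the members. Side by side with the wild type, 91 members were lower in hsfa2 than in wild-type primed and triggered seedlings (median -1.17), and in 85 both hsfa2 arrays lay below all 3 wild-type arrays, as in 16.9% of all probe sets. Because these wild-type arrays chose the members, that difference was not tested. In triggered seedlings the same difference had a median of 0.02.

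**Figure D4:**
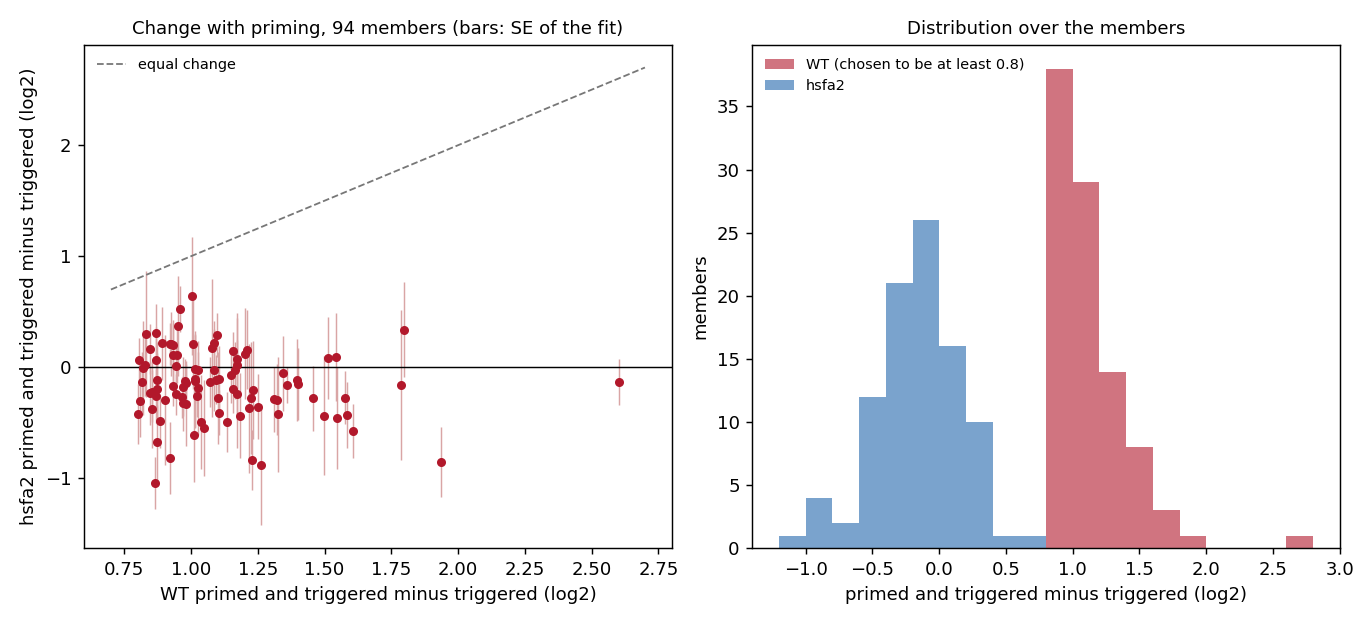
Left, primed and triggered minus triggered (log2) in the wild type (horizontal axis) and in hsfa2 (vertical axis, bars are the standard error of the fit) for the 94 members, with a dashed line of equal change. Right, the number of members by the size of that difference, chosen to be at least 0.8 in the wild type and with a median of 1.03 there, and of -0.15 in hsfa2.

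A single heat treatment in hsfa2 moved members in both directions. Against naive hsfa2 seedlings, 9 members were higher and 9 lower in triggered ones (limma, adjusted p under 0.05, 9.57% of members in each direction), while 3.5% of all probe sets were called higher and 4.88% lower. An unadjusted p under 0.05 in limma was reached by 36 members (38.3%, against 21% of all). The members' median change was 0.12 against 0.02 for all, and 0.058 (without triggered replicate 2) to 0.21 (without triggered replicate 1 or naive replicate 1) with 1 array left out. With each array centred on its median, which shifts the median of all probe sets by 0.14, the median of the members was 0.26 and the counts were 14 higher and 6 lower among members and 1152 and 698 among all, instead of 797 and 1111. In a fit of the hsfa2 arrays alone, 27 members were called higher (28.7%, against 8.54% of all) and 16 lower (17.02%, against 15.9% of all). Leaving out any 1 of the 4 naive and triggered hsfa2 arrays left 1 array in a group, and fewer members were called in each direction. How many of all probe sets were called in these fits is not given here, so the loss cannot be ascribed to the members.

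The members that fell included PRX71 (AT5G64120), from 9.36 and 10.73 in naive to 6.46 and 7.87 in triggered hsfa2 seedlings, a change of -2.88 (SE 0.58, adjusted p in limma 0.00685). AT4G34560 went from 6.77 and 6.76 to 5.13 and 5.47 (-1.46, SE 0.20, adjusted p in limma 0.000365). AT3G52470 went from 8.36 and 8.04 to 6.72 and 6.80 (-1.44, SE 0.24, adjusted p in limma 0.00212). For all 3 the naive and triggered arrays were apart, and the change had the sign of the wild-type one. AT3G16670, of the pollen allergen Ole e 1 family, fell by 1.27 (SE 0.35, adjusted p in limma 0.0401). AT5G64120 was no longer called without naive replicate 2 (-2.20, adjusted p in limma 0.106) or without triggered replicate 1 (-2.18, adjusted p in limma 0.0924), and AT3G16670 lost its call with any 1 of the 4 arrays left out (adjusted p in limma 0.108 to 0.249).

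All 14 members that were lower by 1 or more in the wild type lay below 0 in hsfa2 too, with a median of -1.52, and 8 of them were called lower. How often other probe sets that fell as far in the wild type also fell in hsfa2 is not given here. Of the other 80, 9 were called higher and 1 lower, AT3G16670. Among those that rose, AT1G73040 went from 4.32 and 4.28 to 5.71 and 5.26 (1.19, SE 0.27, adjusted p in limma 0.0151). UBA1A went from 7.68 and 7.56 to 8.37 and 8.14 (0.63, SE 0.17, adjusted p in limma 0.034), and AT4G18280 from 7.68 and 7.61 to 8.22 and 8.47 (0.70, SE 0.19, adjusted p in limma 0.0361). The arrays were apart for each. UBA1A and AT4G18280 lost their calls with any 1 of these 4 arrays left out, at adjusted p in limma of 0.0663 to 0.24 and of 0.0731 to 0.235, and AT1G73040 in 3 of the 4 cases, at 0.0873 to 0.15. Among the lists, the 3 measured heat memory genes rose in the same comparison (list median 7.55), as did 5 of the 6 small heat shock protein genes (8.90), and their medians for primed and triggered minus triggered in hsfa2 were 0.00 and 0.02. COR47, a dehydration gene, rose by 1.63 as 1 of 4 measured genes of the abscisic acid list. All 3 measured root markers fell (list median -1.36), 1 of 2 shoot markers fell (-0.49), and 2 of 11 expansin and xyloglucan enzyme genes fell (-0.26). None of the 3 detoxification, 3 auxin, 1 jasmonate and 1 salicylate genes was called. The part that root and shoot marker levels had in the members' changes was not tested.

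After 3 d of recovery from the first heat, wild-type primed seedlings had no member called higher or lower than in naive seedlings (limma, smallest adjusted p among members 0.392), and 0.0044% of all probe sets were called higher and 0% lower. The rule did not use the primed arrays, and it used the naive ones only as the base of the ceiling. The members' median was 0.16 against -0.00 for all, and 65 of the 94 (69.1%) were above 0, as were 49.5% of all probe sets. An unadjusted p under 0.05 in limma was reached by 13 members, or 13.8%, against 9.06% of all probe sets, and all 13 were higher. Both primed arrays lay above all 3 naive arrays in 12 members (12.8%, against 9.54% of all) and below them in 0 (10.3% of all), and 20 members were higher by 0.5 or more, as were 5.22% of all probe sets.

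AT4G12500, a lipid transfer protein, had the largest primed value, 6.69 and 5.48 against 4.37, 4.66 and 3.98 in naive seedlings. The difference was 1.75 (adjusted p in limma 0.392), and both primed arrays lay above its triggered arrays, at 4.20, 4.29 and 4.24. It was also the member with the lowest primed and triggered mean, 5.51, with 5.20, 6.65 and 4.68, and 260435_at at 4.998 was just outside the limit of 5. The probe set 265561_s_at followed with 1.48, from 7.70, 8.65 and 6.98 to 9.92 and 8.58. One of its primed arrays overlapped the naive ones. ATSYTF was lowest, at -0.64, with 6.24 and 5.62 against 6.97, 6.98 and 5.77, but its difference was 0.16 within the arrays of low bioB signal.

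The 3 arrays of low bioB signal were the naive array of replicate 3 and the 2 primed arrays. Within them the members' median was 0.17 (all probe sets -0.03), and 66 were above 0. With these arrays as a block in the fit, no member was called. The measured small heat shock protein genes stood above naive on the primed arrays by a list median of 0.39 in replicate 1 and 2.72 in replicate 2, and their part in the members' values was not tested. Without primed replicate 1, which leaves 1 primed array, the difference of 266319_s_at was 1.47. Its primed arrays read 6.56 and 8.67 against 7.10, 7.19 and 7.30 in naive seedlings.

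**Figure D5:**
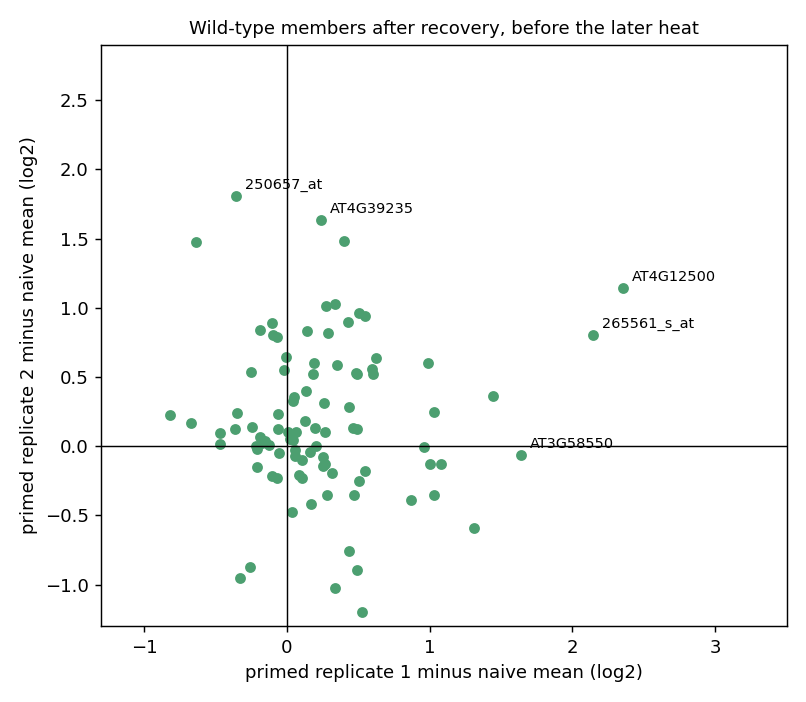
Each of the 94 members by its level on the primed wild-type array of replicate 1 (horizontal axis) and of replicate 2 (vertical axis), both minus the naive mean on the log2 scale. Labels mark the 5 members with the highest value on either array. The array medians were 0.18 and 0.11, and AT4G12500 was far above 0 on both arrays.

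Without heat, hsfa2 and wild-type seedlings had no member called different (limma, smallest adjusted p among members 0.481), with 0% of all probe sets called in either direction. In limma, 5 members had an unadjusted p under 0.05 (5.32%, against 5.79% of all), and the median was -0.05 against 0.01 for all. Both hsfa2 arrays lay above all 3 wild-type arrays in 14 members (14.9%, against 12.4% of all) and below them in 9 (9.57%, against 10.1% of all). PRX71 (AT5G64120) stood furthest apart, at 9.36 and 10.73 in hsfa2 against 7.26, 8.62 and 8.48 in the wild type, 1.93 higher with no overlap (adjusted p in limma 0.481). AT4G12500 followed with 5.42 and 6.52 against 4.37, 4.66 and 3.98, 1.63 higher. JAL22 was lowest, at -0.71, with 8.51 and 8.64 against 9.05, 9.05 and 9.76, and these arrays did not overlap either. With the arrays of low bioB signal as a block the median was -0.045 and no member was called.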

How the data were processed

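RNA of whole seedlings was hybridised to Affymetrix arrays of 22810 probe sets. The deposited intensity values, on a linear scale, were made by the authors with RMA per the submitters' processing notes; its version is not given in the sources used here. Their log2 was taken without a pseudocount and 64 control probe sets were left out. Genes came from the platform annotation updated through RefSeq (TAIR10.1): 13436 probe sets had 1 gene there, 77 a gene not in RefSeq, 503 several and 8730 were not listed.

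A limma (3.58.1, R 4.3.3) model of the 7 groups was fitted to all 17 arrays, with Benjamini-Hochberg adjustment over 22746 probe sets and calls at adjusted p under 0.05, and was tested on simulated data. The shared spread includes the wild-type arrays that chose the members. The rule asked for no overlap of these arrays, which favours a small spread, so the members' intervals may be too narrow. The number of arrays limits the precision. The 4 tested comparisons were hsfa2 primed and triggered minus triggered, hsfa2 triggered minus naive, wild-type primed minus naive, and hsfa2 naive minus wild-type naive. Differences that use the wild-type triggered or primed and triggered arrays were described only.

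Members and gene lists (heat memory, heat shock factors, small heat shock proteins, abscisic acid and dehydration, jasmonate, salicylate, detoxification, expansins, auxin, and shoot, root and seed storage markers) were chosen with earlier results of these data known. No heat shock factor or seed storage gene was measured under 1 gene. Named members were the 10 with a gene and 5 without one that differed most with priming in the wild type, those with a symbol, called members with 1 gene (at most 5 in each direction), and those at each threshold. Others named for their function or as extremes of a comparison were chosen after their values were seen. Deviations of same-numbered wild-type triggered and primed and triggered arrays correlated (0.56, 0.64 and 0.66). The labels name biological replicates only, so a pairing by number is inferred from these values, and that comparison has no test. The fit of all arrays took them as independent in the shared spread. Alternatives were median centring, quantile normalization, a filter at mean 5, fewer groups in the fit, and leaving out each array. Blocks by replicate number and by low bioB signal were also tried.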

Additional observations from a re-analysis of the deposited data

Results flagged for a closer look

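For 9 of the members named for their wild-type difference, symbol or a call, both hsfa2 primed and triggered arrays lay below both triggered ones. In the wild type, all their primed and triggered arrays lay above all triggered arrays. The wild-type direction is fixed by the choice of the members, and the difference between the genotypes was not tested. The hsfa2 differences were -0.85 for AT5G55050, -0.84 for AT1G73040, -0.57 for 246844_at and -0.46 for 266319_s_at. They were -0.38 for AT3G16670, -0.33 for JAL22, -0.29 for TET2 and AT3G62780, and -0.27 for 245595_at. Members named for other reasons had this pattern too, among them 255080_at (-1.05) and AT4G12500 (-0.88). Among all 94 members, 33 had it (35.1%), and the hsfa2 arrays lay this way in 26.1% of all probe sets.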

How the results depend on the processing

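Of the named members' results under the alternatives, 1064 kept direction and call, 19 lost a call, 12 gained one, and 94 changed sign without a call. For hsfa2 primed and triggered minus triggered, calls among members stayed at 0 except in the hsfa2 arrays with a replicate block, a fit added after seeing the data. There 3 were called lower (255080_at, AT1G73040 and 246844_at, adjusted p in limma 0.0209, 0.033 and 0.0364). Of all probe sets, 946 were called in that fit, 449 lower and 497 higher. For hsfa2 triggered minus naive, centring gave 14 higher and a median of 0.26, quantile normalization a median of 0.22, and the hsfa2 arrays alone 27 higher and 16 lower (8.54% and 15.9% of all probe sets). AT5G55050, not called in the fit of all arrays as deposited, was called higher with centring (1.19), quantile normalization (1.18), the filter (1.05), the hsfa2 arrays alone and the replicate block. For hsfa2 naive minus wild-type naive the median was -0.10 with centring, -0.081 with quantile normalization and -0.070 with the filter. With 1 array left out, the medians were -0.24 to -0.06 for hsfa2 priming, 0.058 to 0.21 for hsfa2 triggering (2 to 4 called higher, 2 to 7 lower), 0.11 to 0.18 for wild-type primed (0 to 1 higher) and -0.046 to -0.017 for naive hsfa2. The rule gave 88 to 217 members, with 217 without wild-type primed and triggered replicate 2, of which 82 were among the 94. It gave 89 with centring (85 shared) and 89 with quantile normalization (88 shared).

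Outside the wild-type heated arrays the replicate numbers are only shared (correlations of same-numbered deviations -0.43 to 0.30). The replicate block over all 17 arrays gave 0 calls among members for hsfa2 priming, wild-type primed and naive hsfa2, and 11 higher (11.7%, against 3.79% of all probe sets) and 8 lower (8.51%, against 5.55%) for hsfa2 triggering. Of the 94 members, 12 had a triggered level under 5, where signal over background limits what can be seen.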
